A study of Mus musculus with 6 samples.

Results

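The netrin guidance family was followed here through 10 genes of the mouse ventral midbrain: the ligand genes Ntn1, Ntn3 and Ntn4, the receptor genes Dcc, Neo1, Unc5a, Unc5b, Unc5c and Unc5d, and Draxin, whose secreted product binds both netrin and Dcc. They were chosen by name, and all 10 were found among the 42396 genes listed in the count tables. Their levels were compared between primary cultures with a knockdown of circRmst, a circular RNA made from the long non-coding RNA gene Rmst, and cultures with a scramble hairpin. None of the 10 differed between the groups at an adjusted p under 0.05, where 0% of all genes tested did. In all 10 the SD of CPM among the knockdown libraries was larger than the difference between the group means.

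Both groups came from WT mouse embryos at embryonic day 14, and ventral midbrain cells were plated at 150000 per well and infected on that day with lentivirus at a multiplicity of 5. The knockdown cultures received pll3.7-shRmstI, and the control cultures received pll3.7-Scr2. RNA was collected from pooled wells after 3 days in vitro. There were 3 knockdown and 3 control libraries, from 3 independent cultures per the labels, which do not tie libraries to cultures, so a p-value measures the spread between these libraries. The labels name dopamine neurons as the cell type, but the cells were not described as sorted. The dopamine marker Th was at 9.97 to 16.6 FPKM over the 6 libraries (fragments divided by transcript length and by library size, a level per length), while the GABAergic marker Gad1 was at 38.0 to 48.3 FPKM and the glutamatergic marker Slc17a6 at 14.04 to 19.3 FPKM. The cultures therefore held other neurons beside dopamine neurons. The summed level of 6 oligodendrocyte lineage markers was 212 to 263 CPM (counts scaled to library size, with TMM between libraries) in the knockdown and 216 to 338 CPM in the control. In log2 fold change 6 of 6 were below 0, with 0 past the threshold, where 9049 of all 17439 genes tested were below 0. Of the dopamine neuron markers 7 of 8 were below 0, and of the GABAergic markers 4 of 4 were above 0, with 0 past the threshold. The part of cell type content in the levels of the family was not tested. A lower value in such bulk RNA can come from fewer cells of a type or from less RNA per cell, and these cannot be told apart.

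Netrins are secreted proteins related to laminins that steer growing axons and migrating cells. Netrin-1 from the floor plate attracts axons through the receptor Dcc, and repels them where a receptor of the Unc5 family is present, alone or together with Dcc. Neogenin, the product of Neo1, is the close relative of Dcc and also binds the repulsive guidance molecules. In the mouse midbrain, netrin-1 and Dcc are known to take part in the growth of dopamine axons and in where dopamine neurons settle.

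The libraries held between 27248934 and 43646521 counts, of which the members took from 256 counts (Unc5b in control replicate 3) to 51571 (Ntn1 in knockdown replicate 3). Counting error alone is 6.25% of a count at the lowest of these. Rmst, the host gene of the target, was at 105, 97.1 and 115 CPM in knockdown replicates 1, 2 and 3, against 115, 117 and 124 CPM in control replicates 1, 2 and 3. The means were 106 ± 9.02 CPM in the knockdown and 118 ± 4.85 CPM in the control (SD, n = 3 each), and the groups overlapped. Its log2 fold change was -0.16 (adjusted p = 1.00, edgeR), and -0.091 in limma on log2(FPKM + 0.1). A gene count adds the linear and the circular transcript, so it does not check the knockdown.

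Knockdown replicate 1 stood apart from the other 5 libraries in the long genes of the genome. Gene span here is the length from the first to the last base of the gene, introns included. Counting only genes that averaged 1 CPM or more, 526 spanned at least 300 kb, and 85.9% of them had their lowest value of all libraries in knockdown replicate 1, against 9.01% of the 3752 genes under 10 kb. Over those long genes, the median deviation from the 6-library mean was -0.35, 0.058 and 0.22 log2 units in knockdown replicates 1, 2 and 3, and between 0.0058 and 0.092 in the control replicates. Genes under 10 kb lay the other way, at 0.075 in knockdown replicate 1 and -0.10 in knockdown replicate 3. Of the 10 members, Dcc, Unc5d and Unc5c are of at least 300 kb, so results on these 3 genes are given with and without that library. The limit of 300 kb was set after these values were seen. What set the long genes of that library apart was not tested.

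**Figure D1:**
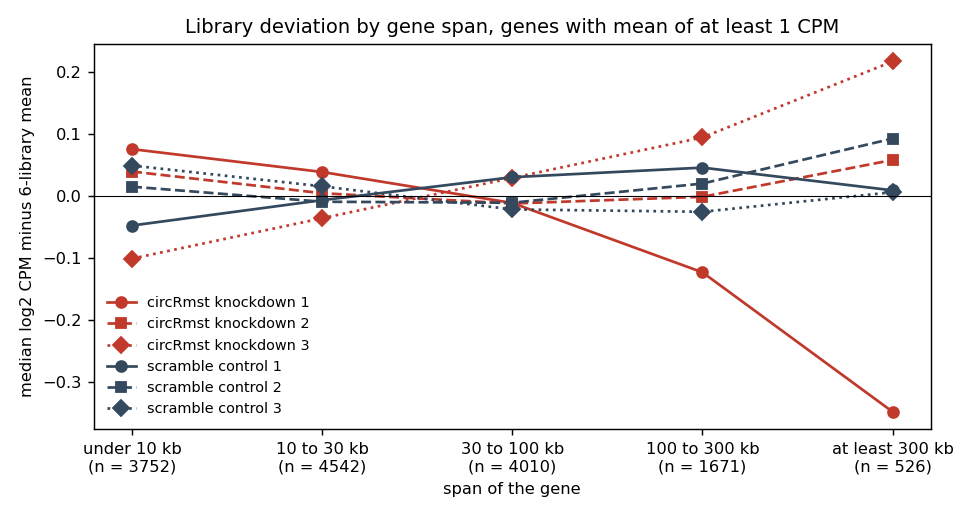
Median deviation of log2 CPM from the 6-library mean (y axis, log2 units) for genes grouped by span (x axis, number of genes under each group), one line per library, knockdown in red and control in dark blue. Knockdown replicate 1 falls to -0.35 at spans of at least 300 kb, while knockdown replicate 3 reaches 0.22.

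Ordered by level per length, Ntn1 stood far above the rest of the family. It averaged 119 FPKM over the 6 libraries, against 21.7 for Neo1, 11.4 for Dcc, 5.22 for Draxin, 4.36 for Unc5a, 4.09 for Unc5d, 2.90 for Unc5c, 2.09 for Ntn4, 1.51 for Ntn3 and 1.03 for Unc5b. Ntn1, Neo1, Dcc and Draxin each lay above the next gene in every library, with no overlap of their ranges. The range of Draxin (4.66 to 6.09 FPKM) did overlap that of Unc5d (2.81 to 4.89 FPKM), which was not its neighbour in the order. The ranges of Unc5a and Unc5d overlapped, as did those of Unc5d and Unc5c and those of Unc5c and Ntn4, so the order within these pairs is not beyond their spread. Ntn4 lay above Ntn3, and Ntn3 above Unc5b, without overlap. Among the receptors, Neo1 had 2.68, 1.93 and 1.55 times the FPKM of Dcc in knockdown replicates 1, 2 and 3, against 1.89, 1.86 and 1.82 times in control replicates 1, 2 and 3. The 4 Unc5 genes summed to 1.38, 1.13 and 0.915 times Dcc in the knockdown replicates, against 1.06, 1.12 and 1.03 times in the controls. Both ratios spread more widely among the knockdown libraries, which lay on either side of the control values.

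**Figure D2:**
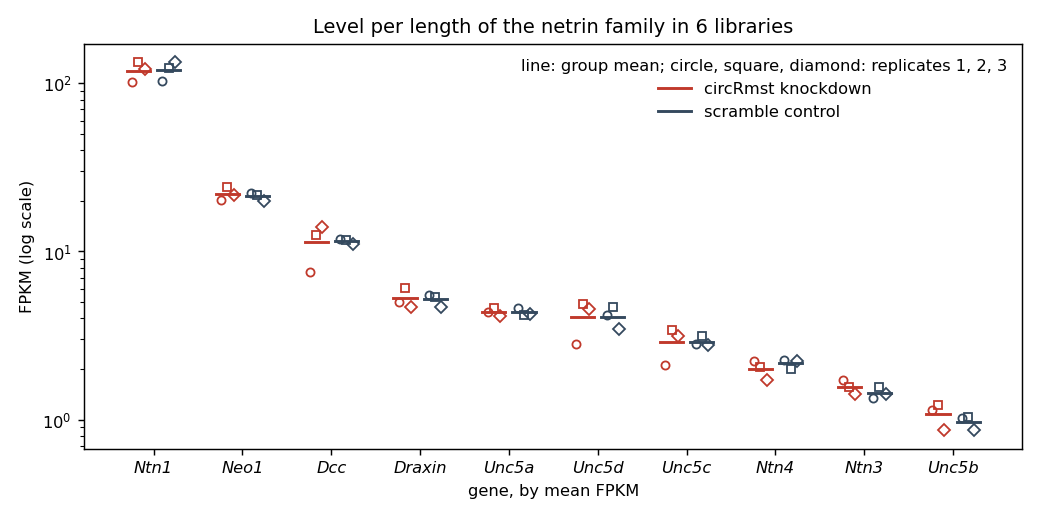
FPKM of each member (y axis, log scale) in the 6 libraries, with genes ordered by mean level along the x axis, knockdown in red to the left of control in dark blue, points for replicates and a line for the group mean. Ntn1 lies between 101 and 133 FPKM, and the points of the groups overlap for every member.

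Ntn1, the classical attractant of the floor plate, was the most abundant ligand and overlapped between the groups. It was at 1002, 1259 and 1232 CPM in knockdown replicates 1, 2 and 3, against 1011, 1221 and 1322 CPM in control replicates 1, 2 and 3. Replicate 1 was the lowest library of each group, and the groups overlapped. The means were 1164 ± 141 CPM in the knockdown and 1185 ± 159 CPM in the control (SD, n = 3 each). The difference was -0.025 on the log2 scale, with a standard error (SE) of 0.13 and a 95% interval from -0.31 to 0.27 (adjusted p = 1.00, edgeR's quasi-likelihood test). On the linear scale that interval runs from 0.804 to 1.20 times the control. The gene lies on chromosome 11 from 68209364 to 68386826 (GRCm38). It held between 64.8% and 72.4% of the summed FPKM of the 10 members.

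Ntn3 and Ntn4, the other netrin ligands measured, were low in both groups. Ntn3, known from mouse as a close relative of Ntn1, was at 17.7, 15.1 and 14.5 CPM in knockdown replicates 1, 2 and 3, against 14.5, 16.2 and 14.1 CPM in control replicates 1, 2 and 3. The groups overlapped, with a log2 fold change of 0.076 ± 0.13 (SE). Ntn3 (chromosome 17, 24203831 to 24209387) shares its 3′ end with the start of Tbc1d24 on the same strand in the GENCODE annotation, a gene with 4782 to 8307 counts per library, so its level is uncertain where the counting could split reads of both genes. Antisense genes overlap Ntn3, Ntn4, Neo1 and Unc5c, and the end of Unc5a overlaps that of Hk3 on the opposite strand (144 to 229 counts per library). Reads of such partners cannot be told apart if the counting did not use strand.

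Ntn4, whose protein lies in basement membranes and binds laminin, is the member closest to the targeted locus. It lies on chromosome 10 from 93641049 to 93745972, 1.48 Mb from Rmst. Its level was 10.6, 9.31 and 7.88 CPM in knockdown replicates 1, 2 and 3, against 10.9, 9.42 and 9.96 CPM in control replicates 1, 2 and 3. Knockdown replicates 2 and 3 lay below all controls, but knockdown replicate 1 lay among them. The log2 fold change was -0.12 ± 0.15 (SE), with a 95% interval from -0.46 to 0.21 (adjusted p = 1.00, edgeR). In the limits of that interval, its level in the knockdown was between 0.726 and 1.16 times that of the control. Unc5b is the other member on chromosome 10, at 31.3 Mb from Rmst.

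The promoters of these 2 genes of chromosome 10 are shown as the sequence nearest to the question of an effect on the chromosome of Rmst. Each is the stretch of 250 bases before the RefSeq start (GRCm38.p6), 5′ to 3′ on the strand of the gene, with every GC box in capitals (GGGCGG on either strand, overlapping matches joined). RefSeq promoters were at hand for 7 of the 10 members, all but Ntn1, Dcc and Unc5d.
Ntn4 (chr10:93640799-93641048, plus strand): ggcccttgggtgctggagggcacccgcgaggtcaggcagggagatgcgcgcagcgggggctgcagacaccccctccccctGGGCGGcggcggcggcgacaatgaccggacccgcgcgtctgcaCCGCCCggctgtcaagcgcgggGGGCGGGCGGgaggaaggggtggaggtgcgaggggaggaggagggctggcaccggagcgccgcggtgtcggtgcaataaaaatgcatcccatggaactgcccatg
Unc5b (chr10:60831582-60831831, minus strand): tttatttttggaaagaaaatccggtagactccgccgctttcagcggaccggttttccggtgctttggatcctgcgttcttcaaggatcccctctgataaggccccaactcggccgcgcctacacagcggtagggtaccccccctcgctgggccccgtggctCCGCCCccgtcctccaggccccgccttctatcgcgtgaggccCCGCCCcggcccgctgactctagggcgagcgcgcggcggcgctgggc
Ntn4 held 4 GC boxes and Unc5b held 2, while 32.7% of the 32851 promoters in the table held at least 1. Neither held a TATA box (TATAAA on either strand), which 12.4% of all promoters did. CG dinucleotides numbered 26 in Ntn4 and 27 in Unc5b, against a median of 6 over all promoters. A match of letters is a description and no evidence that a factor binds there.

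Draxin encodes a secreted protein known to repel axons and to bridge netrin and Dcc. Its level was 44.9, 53.0 and 42.9 CPM in knockdown replicates 1, 2 and 3, against 50.3, 49.0 and 42.5 CPM in control replicates 1, 2 and 3. Knockdown replicate 2 was the highest of the 6 libraries, and the other knockdown libraries lay within the range of the controls. Its log2 fold change was -0.012 ± 0.12 (SE), with a 95% interval from -0.27 to 0.25. In limma on log2(FPKM + 0.1) the value was 0.013, and the cause of the turn in sign was not tested. Draxin (chromosome 4, 148098437 to 148131139) is listed a second time on an alternate sequence. That copy had 0 counts in every library and 0.0875 to 0.201 FPKM, or 1.44% to 3.77% of the FPKM of the main copy. How reads shared by the copies were assigned is not stated, so these values do not measure the shared reads. Its start also overlaps Mad2l2 on the opposite strand, with 697 to 953 counts per library.

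Dcc, the attractive netrin receptor, had nearly equal means in the groups but a far wider spread in the knockdown. It was at 142, 217 and 260 CPM in knockdown replicates 1, 2 and 3, against 220, 214 and 203 CPM in control replicates 1, 2 and 3. Knockdown replicate 1 was the lowest of the 6 libraries and knockdown replicate 3 the highest. The highest knockdown library had 1.83 times the CPM of the lowest, against 1.08 times among the controls. Means were 206 ± 59.8 CPM in the knockdown and 212 ± 8.19 CPM in the control (SD, n = 3 each). On the log2 scale they differed by -0.040 ± 0.18 (SE), with a 95% interval from -0.43 to 0.35 (adjusted p = 1.00, edgeR). The gene spans 1098 kb of chromosome 18, the longest of the family.

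Neo1, the relative of Dcc, was steadier. Its values were 285, 326 and 316 CPM in knockdown replicates 1, 2 and 3, against 316, 313 and 292 CPM in control replicates 1, 2 and 3. The groups overlapped, with knockdown replicate 1 the lowest library. Its log2 fold change was 0.011 ± 0.095 (SE), and the 95% interval ran from -0.20 to 0.22, or from 0.871 to 1.17 times the control. Neo1 spans 162 kb (chromosome 9, 58874679 to 59036614).

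The Unc5 receptors, which mediate repulsion by netrin and are known as dependence receptors that can trigger cell death without their ligand, split into steady and variable genes. Unc5a, a receptor of neurons, was the steadiest member of all, at 32.9, 32.4 and 31.8 CPM in knockdown replicates 1, 2 and 3, against 34.0, 31.7 and 30.6 CPM in control replicates 1, 2 and 3. It had a log2 fold change of 0.012 ± 0.10 (SE). Unc5b, best known from endothelial cells, was at 12.2, 12.8 and 10.01 CPM in knockdown replicates 1, 2 and 3, against 11.1, 10.9 and 9.21 CPM in control replicates 1, 2 and 3. Knockdown replicates 1 and 2 lay above all controls, and knockdown replicate 3 among them. Its log2 fold change of 0.16 ± 0.15 (SE) was the largest of the family, with a 95% interval from -0.17 to 0.49 (unadjusted p = 0.299, adjusted p = 1.00, edgeR). The summed level of 5 endothelial markers, in which Kdr took most and Cldn5 was at 0 counts in every library, was 15.97 to 19.1 CPM in the knockdown and 15.3 to 18.0 CPM in the control. Its part in the level of Unc5b was not tested.

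Unc5c, whose loss in mouse disturbs the migration of cerebellar cells, was at 37.2, 54.8 and 56.4 CPM in knockdown replicates 1, 2 and 3, against 49.5, 55.1 and 47.4 CPM in control replicates 1, 2 and 3. Unc5d, known in mouse cortex as a receptor of migrating neurons that binds Flrt2, was at 50.1, 78.4 and 80.4 CPM in the knockdown replicates, against 71.5, 80.6 and 58.7 CPM in the controls. In both genes knockdown replicate 1 was the lowest of the 6 libraries, and the other knockdown libraries overlapped the controls. The log2 fold change was -0.036 ± 0.15 (SE) for Unc5c and -0.014 ± 0.18 (SE) for Unc5d. Unc5c spans 369 kb (chromosome 3, 141465564 to 141834924) and Unc5d spans 573 kb (chromosome 8, 28646717 to 29219671).

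The 3 longest members thus shared their lowest library with most long genes of the genome. Their deviations from the 6-library mean in knockdown replicate 1 were -0.54 for Dcc, -0.41 for Unc5c and -0.46 for Unc5d. These values rank 123rd, 211th and 172nd from the lowest among the 526 genes of at least 300 kb, so none was extreme among those genes. Genes of a span like the 1098 kb of Dcc were not ranked on their own. Of the 7 members under 300 kb, Ntn1 and Neo1 were also lowest there. Both span 100 to 300 kb, and 46.3% of all genes of that span had their lowest value in knockdown replicate 1. Ntn1 was nearly as low in control replicate 1, at -0.21 log2 units against -0.22 in knockdown replicate 1. The median of genes of that span was 0.045 in control replicate 1. The summed level of 4 general neuron markers was 2556 CPM in knockdown replicate 1, against 2889 to 3256 CPM in the other 5 libraries. Of these, Map2 (267 kb) and Rbfox3 (422 kb) were lowest in knockdown replicate 1, while the shorter Tubb3 (10.5 kb) was lowest in control replicate 1 and Snap25 (69.0 kb) in control replicate 3. Of the dopamine, GABAergic and glutamatergic markers, all under 300 kb, Th, Slc6a3, Lmx1b, Gad1, Gad2 and Pou4f1 were lowest in knockdown replicate 1. Slc18a2, Ddc, Nr4a2, Pitx3, En1, Slc32a1, Gata3 and Slc17a6 were not. The part of neuron content in the deviations of the members was not tested.

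**Figure D3:**
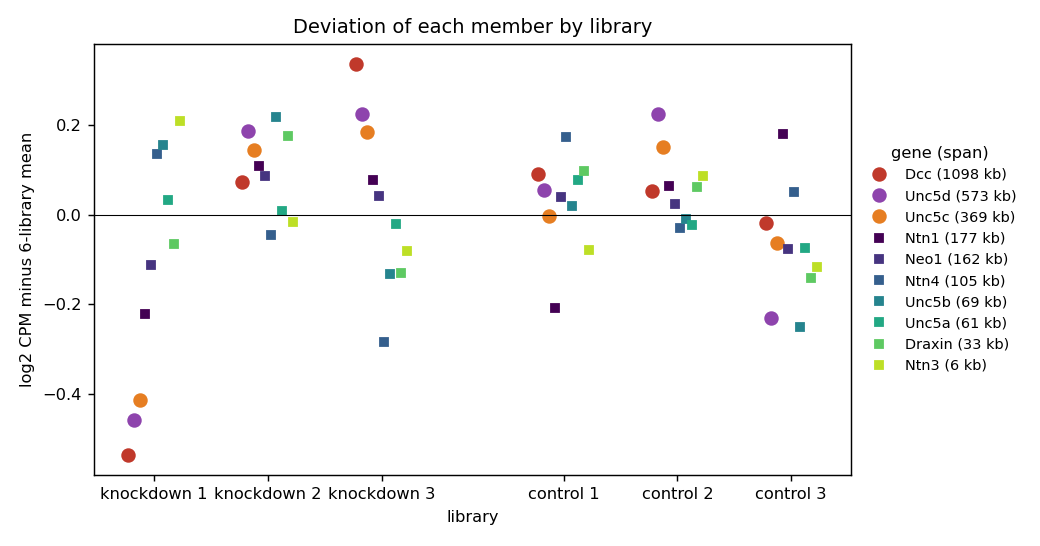
Deviation of log2 CPM from the 6-library mean (y axis, log2 units) of each member in each library (x axis), with large circles for the 3 members of at least 300 kb and squares for the rest. The 3 circles lie at -0.54 to -0.41 in knockdown replicate 1 and above 0 in the other knockdown libraries.

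Without knockdown replicate 1 the log2 fold change turned positive for these 3 genes, at 0.17 ± 0.11 (SE) for Dcc, 0.13 ± 0.12 for Unc5c and 0.18 ± 0.14 for Unc5d, and none passed the threshold (adjusted p = 1.00 for each, edgeR). Without knockdown replicate 3, where Dcc was highest, the log2 fold change was -0.23 for Dcc, -0.13 for Unc5c and -0.12 for Unc5d. A fit with an offset for gene span in each library was added after seeing the data. It gave Dcc a log2 fold change of 0.015 ± 0.082 (SE) with a 95% interval from -0.16 to 0.19, against a standard error of 0.18 without the offset. For Unc5c the standard error was 0.097 with the offset and 0.15 without it, and for Unc5d it was 0.11 with the offset and 0.18 without it. The direction of these 3 genes turned with the offset, and no member was called in either fit. The offset takes out any change that follows gene span, whatever its source. Its curves were drawn from these same libraries and taken as known, so the smaller standard errors do not measure a gain in precision.

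**Figure D4:**
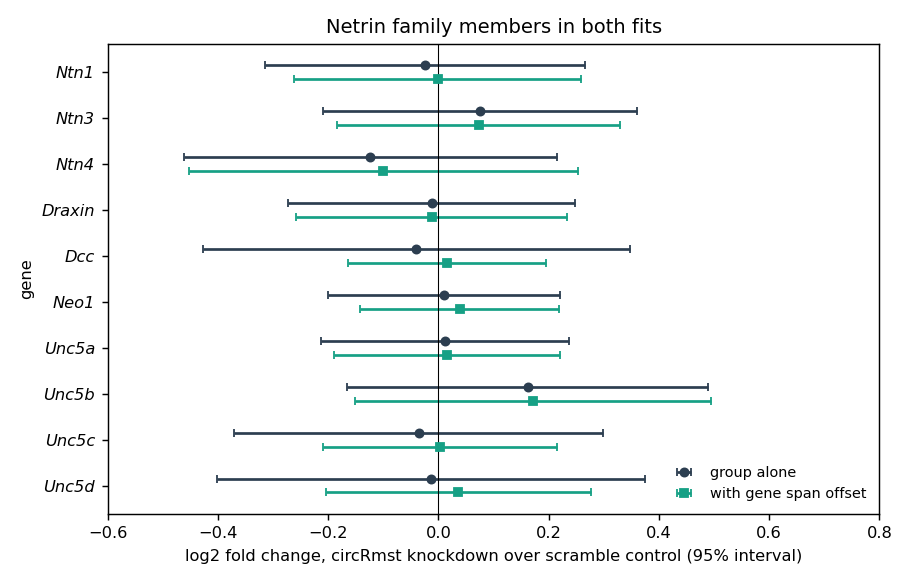
Log2 fold change of knockdown over control with its 95% interval (x axis) for each member (y axis), from the fit with the group alone (circles) and with the gene span offset (squares). Every interval includes 0, and that of Dcc narrows from -0.43 to 0.35 without the offset to -0.16 to 0.19 with it.

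Over the family as a whole, 0 of 10 members had an adjusted p under 0.05 in edgeR, where 0% of the 17439 genes tested did. At an unadjusted p under 0.05 there were 0 of 10 in edgeR, DESeq2 and limma voom, against 1.10% of all genes in edgeR. The groups did not overlap in 0 of 10 members, against 5.20% of all genes (2.92% lower and 2.28% higher in the knockdown). All 10 passed the filter on low counts. There were 4 members above and 6 below 0, with a median log2 fold change of -0.013, beside -0.0060 over all genes tested. Across the 10 intervals, the lowest limit was 0.726 times the control, in Ntn4, and the highest 1.40 times, in Unc5b. These limits come from different genes, and the interval of Neo1 was narrower, as given above.

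Genes that work with netrin receptors were followed as a list of 40, of which 39 were tested. The list held 20 above and 19 below 0, with a median log2 fold change of 0.0042. At an adjusted p under 0.05 there were 0, and at an unadjusted p under 0.05 also 0 in edgeR. The groups did not overlap in 2 of 39, against 5.20% of all genes in either direction, which is about the same share. These 2 genes were higher in the knockdown. They were Siah1a, whose ubiquitin ligase degrades Dcc, and Ptpn11, whose phosphatase Shp2 binds Unc5 receptors. Siah1a was at 42.3, 46.0 and 41.7 CPM in knockdown replicates 1, 2 and 3, against 39.8, 41.6 and 37.6 CPM in control replicates 1, 2 and 3, a log2 fold change of 0.13 ± 0.10 (SE). In FPKM the groups overlapped for Siah1a (10.18 in knockdown replicate 3, 10.24 in control replicate 2) and not for Ptpn11. Ptpn11 was at 233, 224 and 227 CPM in the knockdown replicates, against 216, 213 and 218 CPM in the controls, with 0.077 ± 0.086 (SE). It was singled out after its values were seen.

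Rac1 and Fyn were named for their small p within the list, and neither passed the threshold (adjusted p = 1.00 for each, edgeR). Rac1, the small GTPase that acts below Dcc in growth cones, was at 236, 230 and 209 CPM in knockdown replicates 1, 2 and 3, against 222, 204 and 191 CPM in control replicates 1, 2 and 3. The groups overlapped, with a log2 fold change of 0.13 ± 0.10 (SE). Fyn, a kinase that phosphorylates Dcc, was at 193, 211 and 205 CPM in the knockdown replicates, against 226, 205 and 223 CPM in the controls. These groups overlapped too, with a log2 fold change of -0.10 ± 0.091 (SE).

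Among the most abundant partners, Maged1, known to bind Unc5 receptors, averaged 207 ± 30.2 FPKM in the knockdown and 219 ± 22.4 FPKM in the control (SD, n = 3 each). The GTPase gene Cdc42 averaged 122 ± 4.61 FPKM in the knockdown and 119 ± 6.29 FPKM in the control. Rgma, a ligand of neogenin, averaged 58.7 ± 5.93 FPKM in the knockdown and 61.1 ± 1.03 FPKM in the control. Their log2 fold changes were -0.093 for Maged1, 0.023 for Cdc42 and -0.074 for Rgma. Ntn5, the remaining secreted netrin gene, had 1, 4 and 0 counts in knockdown replicates 1, 2 and 3, against 0, 4 and 0 in control replicates 1, 2 and 3, and was not tested.

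**Figure D5:**
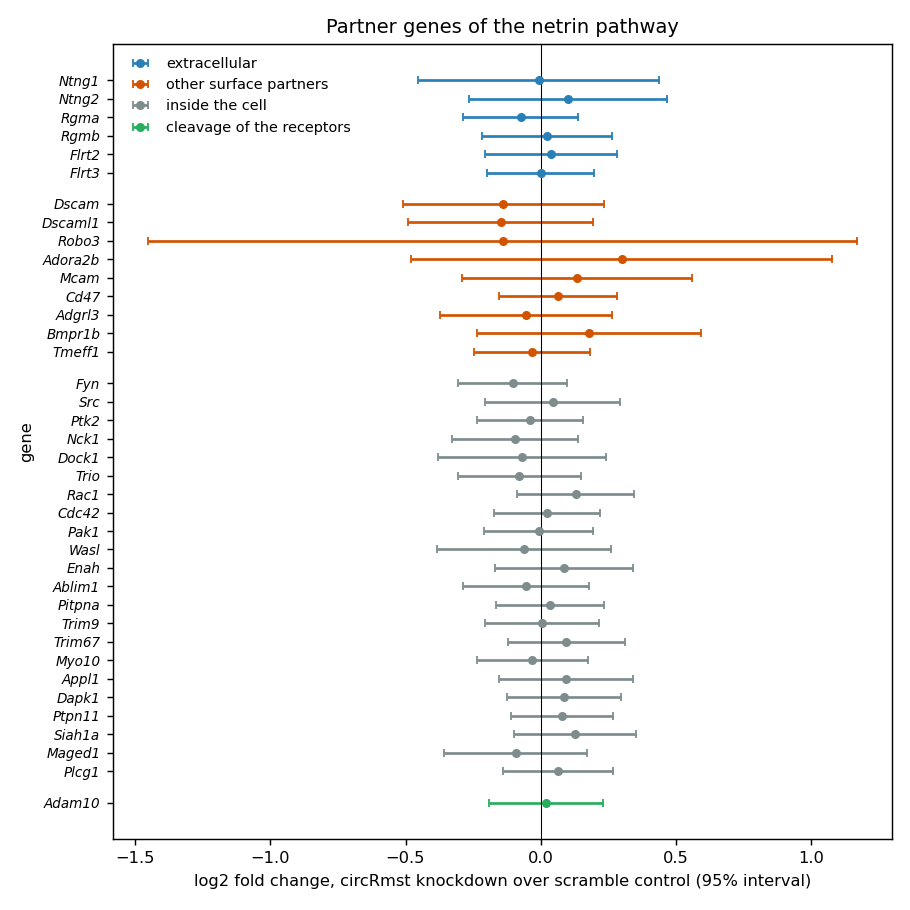
Log2 fold change of knockdown over control with its 95% interval (x axis) for the partner genes tested and reported here (y axis), coloured by where they act. Every interval includes 0, and the widest belongs to the weakly expressed Robo3.

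The genes most like Ntn1 and Dcc over the 6 libraries were found by the smallest root mean square difference of their log2 deviations, among 14500 other genes that averaged 1 CPM or more. For Ntn1 they were Il13ra1 (0.032 log2 units), Atg7 (0.033) and Vps29 (0.035). For Dcc they were Xkr4 (0.045), Sema5a (0.047) and Tbc1d5 (0.047). The 3 genes nearest to Dcc span 472, 452 and 448 kb, and those nearest to Ntn1 span 59.2, 217 and 10.7 kb. Most long genes were lowest in knockdown replicate 1, as Dcc was, so its long neighbours are no separate finding.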

How the data were processed

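RNA of 6 libraries (rRNA-depleted total RNA, a strand-keeping kit, paired reads of 150 bases, per the labels' protocols) was analysed from the deposited tables. The deposited counts are whole numbers per gene, 1 table per library, not pooled. The deposited FPKM values stand in Cufflinks tracking tables, per the file headers. The submitters' processing notes name bcl2fastq 2.20, Cufflinks 2.2.1, DESeq2 and the build GRCm38 (mm10). Which aligner and counter were used, and whether strand was used, is not stated in these sources.

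Counts were tested with edgeR 4.0.16 (R 4.3.3), quasi-likelihood, group alone, filterByExpr (17439 genes), TMM, Benjamini-Hochberg over all genes, threshold 0.05. Alternatives used other scalings, filters, DESeq2 1.42.0, limma 3.58.1 (voom, and log2 FPKM with a pseudocount of 0.1 or 1), a replicate block and leaving out each library. Intervals are at 95%. Within each group, counts differed beyond sampling noise (chi-square per degree of freedom from 12.8 to 91.4), so none was counted as a duplicate. The gene span offset subtracts a smooth curve of deviation over log10 span in each library. Members and lists were chosen with earlier results of these data known. Named were all members, Rmst, the 4 partners with the smallest p (1 of them is not reported here), the 3 most abundant, and the 3 genes most like Ntn1 and Dcc.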

Additional observations from a re-analysis of the deposited data

How the results depend on the processing

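With all 6 libraries, 0 genes were called in edgeR, but 11 were called without the filter on low counts and 1 in DESeq2, none of them a member or a partner gene. Under the 12 alternatives with all libraries, the sign of a member turned in 4 genes. With the gene span offset it was 0.015 for Dcc, 0.0029 for Unc5c and 0.036 for Unc5d. For Draxin it was 0.013 in limma on log2(FPKM + 0.1), with or without the filter on low values, and 0.012 with log2(FPKM + 1), and the cause was not tested. Leaving out 1 library gave log2 fold changes from -0.12 to 0.072 for Ntn1, -0.017 to 0.15 for Ntn3, -0.23 to -0.0092 for Ntn4, -0.23 to 0.17 for Dcc, -0.030 to 0.066 for Neo1, -0.011 to 0.059 for Unc5a, 0.093 to 0.27 for Unc5b, -0.13 to 0.13 for Unc5c, -0.12 to 0.18 for Unc5d and -0.11 to 0.058 for Draxin. No member was called in any of these fits, and the smallest unadjusted p was 0.105, for Unc5b without knockdown replicate 3. The partner genes named by rule and Rmst kept their signs, but their sizes moved when 1 library was left out, from 0.0013 to 0.070 for Cdc42, -0.19 to -0.018 for Maged1, -0.13 to -0.012 for Rgma, 0.088 to 0.19 for Rac1, 0.082 to 0.18 for Siah1a, -0.13 to -0.069 for Fyn and -0.22 to -0.11 for Rmst. On FPKM, Rmst had -0.091 to -0.080.

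With the replicate number as a block, 0 genes were called, and Dcc had -0.083 and Ntn4 -0.13. Deviations of same-numbered libraries from their group means correlated across genes with r = 0.22, 0.23 and 0.036 at numbers 1, 2 and 3. Between unlike numbers r ran from -0.26 to 0.073, so numbers 1 and 2 gave the highest values. Knockdown replicate 3 correlated better with control replicate 1 (0.073) than with its own number. The labels do not tie numbers to cultures, so the main fit took no pairing. Any effect shared by same-numbered libraries stays in its spread. With the block the standard error was 0.095 for Ntn1, against 0.13 without it, and 0.096 for Neo1, against 0.095.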

Other observations

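Knockdown replicate 1 was also the lowest library of some partner genes. Of 6 partner genes that span at least 300 kb and averaged 1 CPM or more, 5 had their lowest value in knockdown replicate 1 (Ntng1, Dscam, Dscaml1, Adgrl3 and Dock1), and Bmpr1b did not. Of the 33 shorter partner genes, 10 did. Over all genes of at least 300 kb the share was 85.9%. Dscam, an adhesion molecule that also acts as a netrin receptor, was at 178, 282 and 289 CPM in knockdown replicates 1, 2 and 3, against 253, 311 and 259 CPM in control replicates 1, 2 and 3. Adgrl3, whose protein binds Flrt proteins and Unc5 receptors, was at 226, 303 and 354 CPM in knockdown replicates 1, 2 and 3, against 306, 322 and 291 CPM in control replicates 1, 2 and 3. These genes were picked after their values were seen.

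Over the 526 genes of at least 300 kb the median log2 fold change was -0.050 with all libraries. It was 0.092 without knockdown replicate 1, -0.079 without knockdown replicate 2 and -0.18 without knockdown replicate 3. Leaving out 1 control library gave values from -0.054 to -0.0071.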
